A study of Mus musculus with 10 samples.

Results

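Potassium channel genes were followed in neural stem and progenitor cells (NSPCs) of mouse brain that carried the genotype label WT (wild type) or Mina53-KO (knockout, KO). Members were the genes whose symbol is Kcn, then letters of a subfamily, then a number, which gave 92 of the 57180 genes in the RNA table and 256 of the 69418 CUT&Tag regions by the gene name the authors assigned. RNA was sequenced after poly(A) selection in 3 libraries of each genotype, and CUT&Tag, in which an antibody-guided transposase cuts DNA beside a chromatin feature, was run in 2 libraries of each. All groups were labelled as untreated. The labels give no antibody, brain region, animal age, strain, passage or method of making the knockout. Whether the libraries of a group stem from different mice or cultures is not stated either. A p-value therefore reflects the spread among these libraries only, and that spread may be technical.

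Potassium channels let K+ leave or enter the cell along its gradient and thereby set the resting membrane potential and shape electrical signals. Pore-forming subunits fall into voltage-gated, calcium- or sodium-activated, inwardly rectifying and tandem-pore (K2P) families, and accessory subunits change the gating or trafficking of the pores. In the brain, voltage-gated channels are best known from neurons and inward rectifiers from astrocytes, while progenitors carry several of these families and depend on membrane potential for proliferation and calcium entry.

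Mina53 is the older name of Riox2 (ENSMUSG00000022724), a JmjC-domain protein. Riox2 measured 19.96, 17.18 and 18.47 CPM (read counts relative to a TMM-scaled library size) in WT and 3.262, 3.783 and 3.697 CPM in KO, which was 5.16-fold lower (edgeR quasi-likelihood test, adjusted p = 0.000324). RNA libraries held 19923010 to 25939376 counts. Mitochondrial genes took 2.31% to 5.71% of them, and the first principal component (47.4% of the variance) set WT 1, KO 1 and KO 2, whose mitochondrial share was 2.31% to 2.68%, apart from WT 2, WT 3 and KO 3, whose share was 3.52% to 5.71%. The progenitor genes Nes (715 CPM in WT, 1020 CPM in KO), Sox2 (177 and 181 CPM) and Fabp7 (1712 and 1716 CPM) were abundant in both groups.

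Of the 92 potassium channel genes, 52 had enough counts to be tested and 8 of these changed between KO and WT at an adjusted p under 0.05. Kcnk2, Kcnn3, Kcnc1, Kcnh8 and Kcnu1 rose, and Kcnn4, Kcnn2 and Kcnc4 fell. Kcnh8, with 5 counts in each WT library, and Kcnu1, with 2 to 4, passed the count filter only through their KO libraries. Their entry into the test thus came from the group where they are higher, and both are part of the member share given next. Among all 15298 tested genes 3.43% changed, 1.77% upwards and 1.66% downwards, against 15.4% of the tested potassium channel genes. The family was chosen with earlier results of these data known, and the rule that chose it names Kcnn4 and Kcnk2. The member share is therefore a description and not a test of the family. The remaining 44 tested members did not pass, and 40 members had too few counts, of which Kcne1, Kcne3, Kcnk9, Kcnk16, Kcnk18 and Kcnj6 had none. The count of changed members depended on single libraries. It was 6 without WT 1 or KO 3, 4 without WT 2, KO 1 or KO 2, and 3 without WT 3. The share of all tested genes called fell too, to 3.06% and 3.25%, then 2%, 1.15% and 1.14%, and 0.931% in that order. The count of changed members was 16 with the split of libraries by mitochondrial share as a covariate, where 11.1% of all tested genes were called. Kcnk2, Kcnn4 and Kcnn2 were called in each of these 7 fits.

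Direction was divided across the family as a whole. Of the 52 tested members, 25 had a positive and 27 a negative log2 fold change, with a median of -0.01 beside 0.01 over all tested genes. The libraries of the groups did not overlap for 21 members, 9 higher and 12 lower in KO, where 19.0% of all tested genes did not overlap, 9.69% being higher and 9.26% lower. An unadjusted p under 0.05 was reached by 21 members and by 13.7% of all tested genes.

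**Figure D1:**
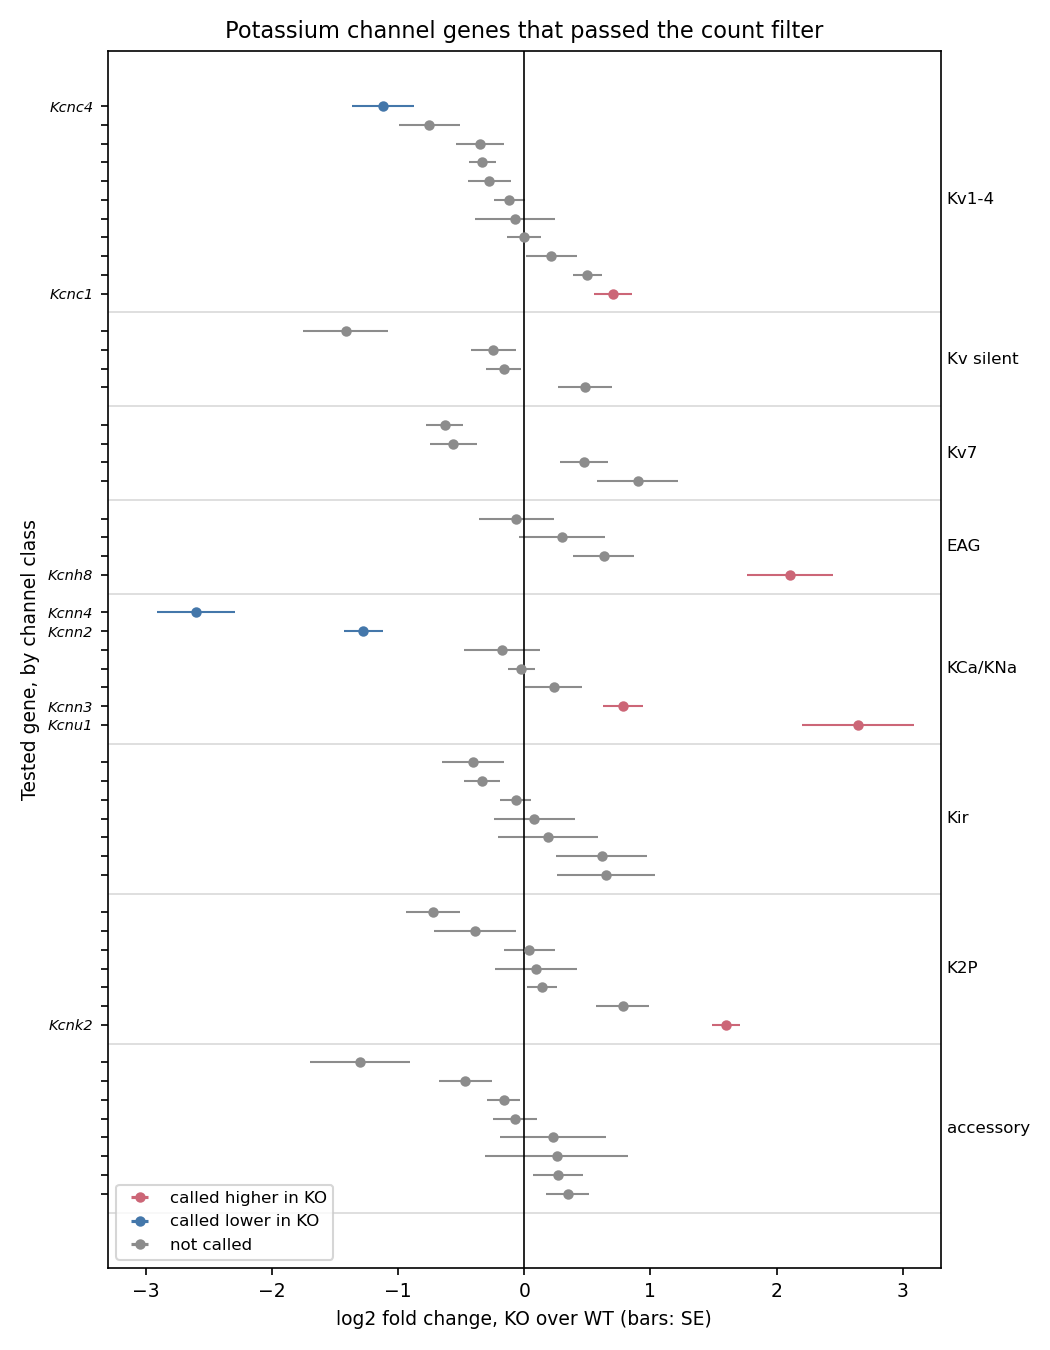
Log2 fold change of RNA, KO over WT, for the 52 tested potassium channel genes, grouped by channel class (Kv1-4 stands for the Kcna, Kcnb, Kcnc and Kcnd genes), with bars showing the standard error and names given for the called genes. The 5 members called higher are red, the 3 called lower are blue, and values run from -2.60 (Kcnn4) to 2.65 (Kcnu1), with the small-conductance Kcnn genes on both sides of 0.

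Promoters were read for members that moved in opposite directions within a subfamily, and for Kcnk2, the member with the smallest p. The RefSeq promoter table (GRCm38.p6) held 92 promoters of 67 members. The 250 bases before the start are printed 5′ to 3′ on the gene's strand, with matches to 5 short motifs in capitals, searched on both strands. They were GGGCGG (the GC box), CCAAT (the motif of NF-Y), TATAAA (the TATA box), ACGTG (part of a palindromic E-box) and CAGCTG (another E-box). None of these motifs contains another. A match describes letters only.
Kcnn4 (chr7:24370013-24370262, plus strand): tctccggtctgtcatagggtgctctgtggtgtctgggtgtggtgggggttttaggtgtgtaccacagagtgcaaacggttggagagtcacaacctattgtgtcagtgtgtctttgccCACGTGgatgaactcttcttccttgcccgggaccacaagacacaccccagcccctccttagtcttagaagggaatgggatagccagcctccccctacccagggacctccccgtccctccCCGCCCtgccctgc
Kcnn3 (chr3:89519914-89520163, plus strand): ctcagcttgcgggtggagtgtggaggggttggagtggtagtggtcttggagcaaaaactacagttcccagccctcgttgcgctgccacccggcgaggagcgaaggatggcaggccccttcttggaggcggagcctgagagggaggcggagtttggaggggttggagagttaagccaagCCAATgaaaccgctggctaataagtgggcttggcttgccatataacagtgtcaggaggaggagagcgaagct
Kcnc1 (chr7:46396218-46396467, plus strand): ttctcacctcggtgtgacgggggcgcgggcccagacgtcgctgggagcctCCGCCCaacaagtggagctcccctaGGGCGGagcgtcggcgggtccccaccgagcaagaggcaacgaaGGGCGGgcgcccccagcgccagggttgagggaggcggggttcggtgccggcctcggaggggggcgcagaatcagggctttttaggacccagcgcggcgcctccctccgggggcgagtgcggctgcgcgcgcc
Kcnc4 (chr3:107458899-107459148, minus strand): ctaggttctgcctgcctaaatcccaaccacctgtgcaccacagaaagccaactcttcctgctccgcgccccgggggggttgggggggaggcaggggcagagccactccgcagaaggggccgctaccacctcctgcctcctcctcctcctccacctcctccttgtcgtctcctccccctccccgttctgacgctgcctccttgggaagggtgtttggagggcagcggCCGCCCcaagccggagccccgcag
Kcnk2, start 3 of 4 (chr1:189343708-189343957, minus strand): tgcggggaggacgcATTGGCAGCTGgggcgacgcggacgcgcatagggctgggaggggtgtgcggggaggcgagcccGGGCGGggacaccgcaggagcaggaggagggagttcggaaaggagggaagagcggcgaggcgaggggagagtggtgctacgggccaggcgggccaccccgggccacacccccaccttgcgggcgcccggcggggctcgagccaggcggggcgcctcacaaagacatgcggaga
Kcnk2, start 1 of 4 (chr1:189402274-189402523, minus strand): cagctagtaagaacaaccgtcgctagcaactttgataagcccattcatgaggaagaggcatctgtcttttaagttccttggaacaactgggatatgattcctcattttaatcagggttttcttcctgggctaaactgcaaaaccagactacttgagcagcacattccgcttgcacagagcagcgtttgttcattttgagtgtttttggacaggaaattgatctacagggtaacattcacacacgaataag

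Counted with the 50 bases after the start (300 in all), the Kcnc1 promoter was the richest of the single-start promoters shown, with a GC content of 74.7%, 41 CpG and 3 matches to GGGCGG. Kcnc4 had a GC content of 66.7%, 17 CpG and 1 such match. Kcnn4 had 6 CpG, 1 match to GGGCGG and ACGTG read on both strands of a single CACGTG, while Kcnn3 had 11 CpG and 1 CCAAT. The starts of Kcnk2 differed most. Start 1 had 6 CpG and none of the motifs. Start 3 had 33 CpG with a GC box and, side by side, a CCAAT match on the other strand and the CAGCTG motif. Of the starts not printed, start 2 had 3 CpG and 1 CAGCTG, and start 4 had 33 CpG and none of the motifs. The RNA table does not separate these starts.

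Over all 92 member promoters the median GC content was 58.0% and the median number of CpG was 9, beside 52.7% and 7 over 32851 promoters of all genes. GGGCGG was found in 47.8% of member promoters and 35.7% of all promoters, and CAGCTG in 25.0% and 16.3%. TATAAA was found in 5.43% of member promoters and 13.6% of all, CCAAT in 30.4% and 37.4%, and ACGTG in 17.4% and 19.6%. Some members have several starts in the table, so these promoters are not independent, and the shares are a description with no test.

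The class of calcium- or sodium-activated genes, which counts Kcnu1 by family, has 8 genes and held 4 of the 8 changed members. Of its 7 tested genes 57.1% were called, beside 3.43% of all tested genes. Kcnu1 passed the count filter only through its KO libraries, and Kcnn4 is named in the rule that chose the members. This count is thus a description and was not tested. Kcnn4 encodes the intermediate-conductance calcium-activated channel, which opens through calmodulin and is also known from immune and red blood cells. It measured 7.72, 4.65 and 4.82 CPM in WT and 1.24, 0.665 and 0.934 CPM in KO. The groups did not overlap, and the lowest WT library was above the highest KO library. The log2 fold change was -2.60 (SE 0.31), 6.08-fold lower in KO (edgeR, adjusted p = 0.00438). The 14 microglial markers summed to 35.5 to 44.4 CPM in WT and to the lower 30.4 to 32.7 CPM in KO, with 4 of 14 at 0, and the 7 red cell markers to 0.247 to 0.338 CPM in WT and 0.374 to 0.506 CPM in KO, with 4 of 7 at 0. Their part in the fall of Kcnn4 was not tested.

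Kcnn2 encodes a small-conductance calcium-activated channel that contributes to the afterhyperpolarization of neurons. It measured 11.99, 13.36 and 15.2 CPM in WT and 5.68, 5.99 and 5.10 CPM in KO. Every KO library lay below every WT library, and the log2 fold change was -1.27 (SE 0.15; edgeR, adjusted p = 0.00464), 2.42-fold lower.

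Kcnn3, the gene of another small-conductance channel of the same subfamily, went the other way. It measured 17.6, 16.1 and 18.2 CPM in WT and 28.9, 24.4 and 36.0 CPM in KO, with KO 3 the highest. The log2 fold change was 0.78 (SE 0.16; edgeR, adjusted p = 0.0398), 1.72-fold higher. The call for Kcnn3 was kept without KO 2 (adjusted p = 0.0499) and lost without WT 1 (0.0566), WT 2 (0.126), WT 3 (0.175), KO 1 (0.148) or KO 3 (0.0585).

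Kcnn1, the remaining gene of the subfamily, measured 7.01, 4.85 and 5.01 CPM in WT and 6.87, 7.90 and 5.06 CPM in KO, and its groups overlapped (log2 fold change 0.23, SE 0.23; edgeR, adjusted p = 0.821). Read per gene length as TPM (counts divided by gene length and scaled to a common sum per library), the order of the subfamily differed between the groups. In WT, Kcnn2 was highest (17.5 ± 2.56 TPM, SD, n = 3), then Kcnn3 (13.4 ± 1.56), Kcnn4 (6.46 TPM) and Kcnn1 (4.25 TPM). In KO, Kcnn3 led (23.3 ± 4.78 TPM, SD, n = 3), followed by Kcnn2 (7.31 ± 0.537), Kcnn1 (5.03 TPM) and Kcnn4 (1.08 TPM). In WT the levels of Kcnn2 and Kcnn3 overlapped within 1 SD. All 4 carry the small-conductance channel and calmodulin-binding domains in the authors' annotation, and of these 4 genes 1 rose, 2 fell and 1 did not pass.

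Kcnu1 encodes a large-conductance relative known mainly from sperm. It had 2, 4 and 3 counts in the WT libraries and 11, 21 and 24 in the KO libraries, or 0.084, 0.164 and 0.116 CPM against 0.544, 0.873 and 0.934 CPM. The gene was thus near the detection limit in WT and under 1 CPM in every KO library. The log2 fold change was 2.65 (SE 0.44; edgeR, adjusted p = 0.0178), and the call was lost without WT 2 (0.0527), WT 3 (0.124) or KO 2 (0.0836). Kcnma1, which encodes the pore of the large-conductance calcium-activated channel and led this class in level, measured 60.3, 61.6 and 67.1 CPM in WT and 63.3, 57.4 and 65.2 CPM in KO, with overlapping groups (log2 fold change -0.02, SE 0.11; edgeR, adjusted p = 0.966). The sodium-activated Kcnt1 was not called either, with a log2 fold change of -0.18 (SE 0.30).

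Of the 14 tandem-pore K2P genes, which carry background potassium current, 7 were tested and 1 rose. Kcnk2 encodes TREK-1, a channel opened by membrane stretch, polyunsaturated fatty acids and acid inside the cell. It measured 12.79, 12.05 and 11.26 CPM in WT and 37.8, 35.7 and 35.9 CPM in KO, and both groups were tight. The log2 fold change was 1.60 (SE 0.11; edgeR, adjusted p = 0.000412), 3.03-fold higher in KO.

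Per gene length, Kcnk2 moved from below Kcnk1 to above it. In WT, Kcnk1 stood at 30.3 ± 3.56 TPM and Kcnk2 at 17.4 ± 1.37 TPM (SD, n = 3), and in KO Kcnk2 stood at 53.2 ± 2.46 TPM and Kcnk1 at 33.6 ± 2.73 TPM. Kcnk1, which encodes the weakly conducting TWIK-1 channel, had a log2 fold change of 0.14 (SE 0.12) and was not called. Kcnk10, the closest tested relative of Kcnk2 and also a mechanosensitive channel, measured 2.79, 3.62 and 2.51 CPM in WT and 5.59, 4.24 and 5.49 CPM in KO. These groups did not overlap, but Kcnk10 did not pass (log2 fold change 0.78, SE 0.21; edgeR, adjusted p = 0.105).

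Kcnk3, the acid-sensitive TASK-1 gene, measured 7.048, 6.002 and 5.863 CPM in WT and 4.60, 4.07 and 2.80 CPM in KO. The KO values were all lower, without passing the test (log2 fold change -0.72, SE 0.22; edgeR, adjusted p = 0.141). Kcnk5, Kcnk4 and Kcnk13 had log2 fold changes between -0.39 and 0.09 and overlapping groups. The summed level of the K2P class was 63.7, 51.4 and 59.7 TPM in WT and 101.6, 96.6 and 91.8 TPM in KO. Most of this difference was that of Kcnk2 itself. K2P was the only class whose summed TPM did not overlap between the groups, but on summed CPM the libraries did not overlap for 5 of 8 classes, namely K2P and the Kcna to Kcnd genes, the Kcnh genes, the silent subunits and the Kcnq genes.

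**Figure D2:**
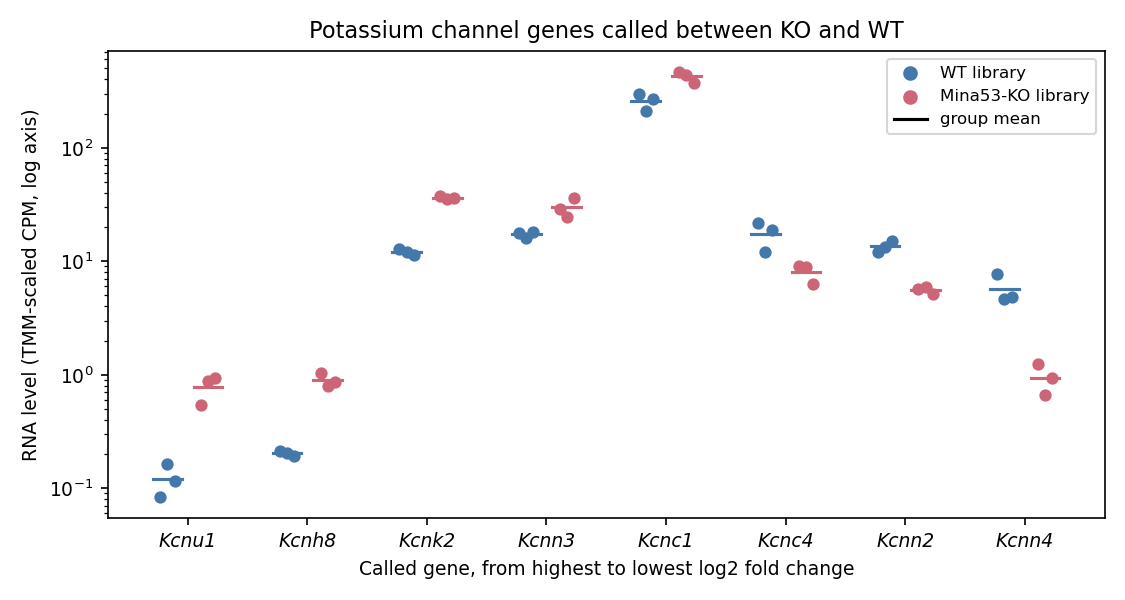
RNA level (TMM-scaled CPM, log axis) of the 8 called potassium channel genes in each of the 3 WT (blue) and 3 KO (red) libraries, with lines at the group means, ordered from the highest to the lowest log2 fold change. Kcnk2 lies at 11.3 to 12.8 CPM in WT and 35.7 to 37.8 CPM in KO, and Kcnh8 and Kcnu1 lie near or under 1 CPM in every library.

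Of the 17 voltage-gated Kcna, Kcnb, Kcnc and Kcnd genes, 11 were tested, 1 rose and 1 fell, and both were Shaw-related Kcnc genes, which encode fast-deactivating channels of rapidly firing neurons. Kcnc1 measured 299, 212 and 271 CPM in WT and 465, 440 and 371 CPM in KO. The groups were apart, with WT 2 lowest and KO 1 highest, and the log2 fold change was 0.71 (SE 0.15; edgeR, adjusted p = 0.0462), 1.63-fold higher. The call for Kcnc1 was kept without WT 1 (0.0241) or KO 3 (0.0253) and lost without WT 2 (0.0945), WT 3 (0.194), KO 1 (0.200) or KO 2 (0.163).

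Kcnc4 measured 21.7, 12.1 and 18.9 CPM in WT and 8.996, 8.978 and 6.305 CPM in KO. It was lower in every KO library, with WT 2 nearest to the KO range, and the log2 fold change was -1.12 (SE 0.24; edgeR, adjusted p = 0.0493), 2.17-fold lower. The call for Kcnc4 was kept without WT 2 (0.0240) and lost without WT 1 (0.0722), WT 3 (0.214), KO 1 (0.134), KO 2 (0.127) or KO 3 (0.0667). Kcnc2, another Shaw-related gene, had overlapping groups and a log2 fold change of -0.07 (SE 0.32).

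Kcnc1 also led the voltage-gated genes per length, at 186 ± 39.9 TPM in WT and 304 ± 35.7 TPM in KO (SD, n = 3). Kcnd3, which encodes an A-type channel of the Shal family, stood beside it in WT at 185 ± 16.3 TPM and at 172 ± 22.7 TPM in KO, so that these neighbours in the WT order did not differ beyond their spread. Kcnd3 itself was not called (log2 fold change -0.12, SE 0.12). Kcna2, a Shaker-related delayed rectifier of axons, measured 186 to 212 CPM in WT and 143 to 167 CPM in KO. Its groups did not overlap, and it did not pass (log2 fold change -0.33, SE 0.11; edgeR, adjusted p = 0.182).

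Kcna4, Kcnd1 and Kcnd2 had log2 fold changes from -0.75 to -0.28, and Kcna6 was at 0.00 (SE 0.14), none of them called.

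Among the 10 electrically silent modifier subunits (Kcnf, Kcng, Kcns and Kcnv), which form channels only together with Shab-related pores, 4 were tested and none passed. Kcng4 measured 3.12, 2.75 and 2.74 CPM in WT and 1.29, 1.41 and 0.545 CPM in KO. The groups were apart, with a log2 fold change of -1.42 (SE 0.34; edgeR, adjusted p = 0.0662). Kcng1 and Kcnv1, the most abundant of the class per length at 12.3 and 6.21 TPM in WT, had overlapping groups and log2 fold changes of -0.16 (SE 0.14) and -0.25 (SE 0.18).

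Among the 5 Kcnq genes, which encode the slowly activating M-current and related channels, 4 were tested and none passed. Kcnq5 measured 11.7, 14.2 and 13.8 CPM in WT and 7.81, 9.06 and 8.76 CPM in KO. All KO values were below all WT values, and Kcnq5 had the smallest p among members that missed the threshold (log2 fold change -0.63, SE 0.14; edgeR, adjusted p = 0.0576). Its level was 4.23 TPM in WT.

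Among the 8 Kcnh genes of the ether-à-go-go family, 4 were tested and 1 rose. Kcnh8 measured 0.211, 0.206 and 0.193 CPM in WT, 5 counts in each library, and 1.04, 0.790 and 0.856 CPM in KO, from 21, 19 and 22 counts. The groups were far apart at a low level, with a log2 fold change of 2.11 (SE 0.34; edgeR, adjusted p = 0.0153). The call for Kcnh8 was lost without WT 2 (0.0597), WT 3 (0.116), KO 1 (0.0913) or KO 2 (0.0607). Kcnh2, the ERG channel gene and the most abundant of the class, measured 17.9, 9.87 and 13.5 CPM in WT and 23.3, 24.2 and 16.4 CPM in KO, with overlapping groups (log2 fold change 0.63, SE 0.24; edgeR, adjusted p = 0.272). Kcnh4 was at -0.06 (SE 0.30).

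Of the 15 inward rectifier genes, 7 were tested and none passed. Kcnj10, the Kir channel by which astrocytes take up K+, measured 425, 443 and 530 CPM in WT and 375, 315 and 420 CPM in KO. Its highest KO library was just below its lowest WT library, and the log2 fold change was -0.33 (SE 0.14; edgeR, adjusted p = 0.334). Kcnj16, whose product joins with that of Kcnj10, measured 134, 163 and 152 CPM in WT and 138, 130 and 160 CPM in KO, with overlapping groups (log2 fold change -0.07, SE 0.12). Per length, these genes stood at 193 ± 30.6 and 90.0 ± 6.48 TPM in WT (SD, n = 3). Kcnj4, Kcnj9, Kcnj2, Kcnj11 and Kcnj14 were under 5 CPM in every library and had overlapping groups.

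Of the 15 accessory genes, 8 were tested and none passed. Kcnip3, which encodes a calcium-binding protein that joins Shal-type channels and is also known as a transcriptional repressor, was the most abundant member of all by TPM. It measured 498, 405 and 445 CPM in WT and 424, 435 and 344 CPM in KO, with overlapping groups (log2 fold change -0.16, SE 0.13). Its level was 369 ± 54.3 TPM in WT and 332 ± 39.8 TPM in KO (SD, n = 3). Kcnmb4, a beta subunit of the large-conductance channel, had a log2 fold change of -0.07 (SE 0.18) and stood at 79.0 TPM in WT.

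Kcnmb1, another beta subunit, measured 0.633, 0.822 and 0.463 CPM in WT and 0.198, 0.291 and 0.272 CPM in KO. The groups did not overlap at this low level (log2 fold change -1.30, SE 0.40; edgeR, adjusted p = 0.150). A CUT&Tag region assigned to Kcnmb1 lies in an intron of Kcnip1 in the authors' annotation, so reads in this stretch cannot be given to 1 of these genes with certainty. Antisense transcripts are annotated at Kcnd3, Kcnmb4, Kcnab3 and Kcnq1, and no source used here says whether counting took strand into account. The values of these genes may therefore hold antisense reads, although Kcnq1 had no more than 1 count in any library.

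**Figure D3:**
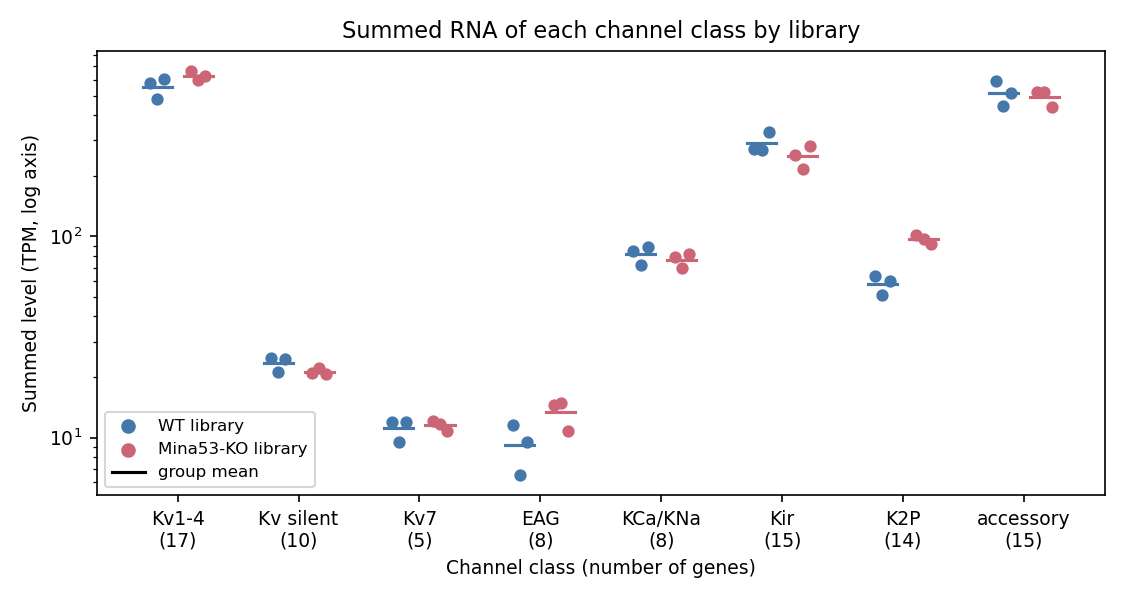
Summed RNA level (TPM, log axis) of the members of each channel class in the 3 WT (blue) and 3 KO (red) libraries, with lines at the group means and the number of genes in brackets. The accessory and Kcna to Kcnd (Kv1-4) genes carry the most RNA, and the K2P libraries lie at 51.4 to 63.7 TPM in WT and 91.8 to 101.6 TPM in KO, most of the difference being that of Kcnk2.

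The sum over all 92 members was 1543 ± 163 TPM in WT and 1592 ± 63.6 TPM in KO (SD, n = 3), with overlapping libraries. The Kcna to Kcnd genes summed to 552 ± 64.8 TPM in WT and 629 ± 31.8 TPM in KO, the accessory genes to 518 ± 72.3 and 494 ± 48.6 TPM, and the inward rectifiers to 290 ± 34.5 and 249 ± 32.3 TPM. The class of calcium- and sodium-activated genes, Kcnu1 included, summed to 81.7 ± 8.70 TPM in WT and 76.7 ± 6.15 TPM in KO, although 4 of its 8 members changed. These sums are a description and were not tested.

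The size of the difference was also read within each set of libraries that the first principal component set apart. The groups of the called members do not overlap, so their sign within a set was fixed beforehand. In the set of WT 1, KO 1 and KO 2, and then in the set of WT 2, WT 3 and KO 3, the log2 ratio of mean CPM was 1.52 and 1.62 for Kcnk2, -3.02 and -2.34 for Kcnn4, and -1.04 and -1.49 for Kcnn2. It was 0.60 and 1.07 for Kcnn3, 0.60 and 0.62 for Kcnc1, and -1.27 and -1.30 for Kcnc4. For Kcnh8 it was 2.11 and 2.10, and for Kcnu1 3.07 and 2.74. Each set holds too few libraries for a test. Of the 44 members that were not called, 34 had the same sign in both sets. Some of these, such as Kcng4 and Kcnq5, also have groups that do not overlap, so their sign was fixed as well. The share over all tested genes was not computed.

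Genes that work with these channels were read from 2 lists, beside the 3.43% of all tested genes that were called. Of 36 listed partners (auxiliary subunits, scaffolds, HCN and related genes), 26 were tested, none rose and 1 fell, with a median log2 fold change of -0.03. The one that fell was Lgi1, whose secreted product is bound to Kv1-containing complexes at synapses, with 0.718, 1.52 and 1.66 CPM in WT and 0.346, 0.208 and 0.272 CPM in KO (edgeR, adjusted p = 0.0311). Of 32 listed pumps and cotransporters that move K+, 22 were tested, 2 rose and 1 fell, with a median of -0.07.

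The potassium-chloride cotransporter Slc12a7 measured 10.8, 9.09 and 9.30 CPM in WT and 23.4, 27.3 and 25.3 CPM in KO (2.61-fold higher; edgeR, adjusted p = 0.0016). Beta subunits of the sodium-potassium pump moved in opposite directions. Atp1b1, the form known from neurons, measured 95.7, 111 and 96.0 CPM in WT and 147, 154 and 164 CPM in KO (edgeR, adjusted p = 0.0207). Atp1b2, the form known from glia, measured 1168, 1158 and 1207 CPM in WT and 763, 757 and 812 CPM in KO (1.51-fold lower; edgeR, adjusted p = 0.0115). None of these groups overlapped.

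For several marker lists the summed levels did not overlap between the groups. The summed level of 18 neuron markers was 830 to 993 CPM in WT and 1094 to 1287 CPM in KO, with 3 of 15 tested higher (Nefl, Nefm and Gap43) and Slc17a6 at 0. The summed level of 14 astrocyte markers was 4545 to 5932 CPM in WT and 3769 to 4432 CPM in KO, with 4 of 14 lower (S100b, Aldoc, Agt and Sparcl1) and none at 0. The 18 neural stem and radial glia markers found in the table summed to 10550 to 11020 CPM in WT and 12240 to 12360 CPM in KO, with 2 of 18 higher and 2 lower. The 14 endothelial and pericyte markers summed to 90.6 to 145 CPM in WT and 177 to 221 CPM in KO, with Flt1 higher of 5 tested and the defining Cdh5 and Cldn5 at 0. The part of these markers in the changes of Kcnc1, Kcnk2, Kcnn4 and the other potassium channel genes was not tested. In bulk libraries, fewer cells of a type and less RNA per cell cannot be told apart.

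The other marker lists overlapped between the groups or were low. Oligodendrocyte lineage markers summed to 2443 to 3892 CPM in WT and 2364 to 3647 CPM in KO, with 1 of 11 tested higher and 1 lower. Of the 14 microglial markers, whose sum is given beside Kcnn4, 2 were tested and neither was called, and Cx3cr1, Itgam, C1qc and Trem2 were at 0. Fibroblast and meningeal markers summed to 31.9 to 39.0 CPM in WT and 19.5 to 22.5 CPM in KO, with 1 of 7 tested higher and 2 lower. Ependymal markers summed to 23.8 to 43.3 CPM in WT and 32.7 to 55.5 CPM in KO with none of 4 tested called, and erythroid markers were too low for a test.

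CUT&Tag asked whether the chromatin feature differed at the same genes. The 4 libraries held 2913959 to 4038765 reads in regions, and coordinates are on GRCm39. The authors assigned 256 regions to 71 of the 92 members. None of the 255 tested member regions was called (edgeR, smallest adjusted p = 0.276), beside 0.00722% of 69209 tested regions. An unadjusted p under 0.05 was reached by 19 member regions, 4 higher and 15 lower in KO, or 7.45% beside 5.35% of all regions. Over all regions the split leaned the same way, with 1175 higher and 2529 lower. DESeq2 called none either and gave 8 at an unadjusted p under 0.05.

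Of the 15 lower regions, 13 had a peak in a single library, of WT, and all 4 higher regions had a peak in a single library, of KO. Regions entered the authors' table through such peaks, and the part of this in their direction was not tested. Of the 256 member regions, 17 had a peak in all 4 libraries and 167 in 1 library. Of all 69418 regions, 6965 had a peak in all 4 libraries and 44101 in 1 library.

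The member region with the smallest p lies at chr5:30763772-30764194 in an intron, at -14523 bases from a start (negative distances are upstream), and is assigned to Kcnk3. It measured 24.3 and 31.1 CPM of reads in regions in WT and 15.1 and 13.0 CPM in KO, with a log2 fold change of -0.97 (SE 0.26; edgeR, adjusted p = 0.276) and a peak in 1 WT library. Intronic regions assigned to Kcnd3 (chr3:105381980-105382448, log2 fold change -0.78, SE 0.27) and Kcnip1 (chr11:33959934-33960230, -1.07, SE 0.44) were lower too. So was a distal region assigned to Kcnk15 (chr2:163682120-163682371, -1.14, SE 0.47). A distal region assigned to Kcnc2 (chr10:112382795-112383138) was higher, at 3.88 and 1.73 CPM in WT and 10.5 and 6.23 CPM in KO (log2 fold change 1.56, SE 0.64). Their adjusted p-values were 0.749 to 0.879, so none of these regions passed.

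At the members whose RNA changed, the region nearest the start was called at none of the 8 genes (edgeR, adjusted p of at least 0.934). At Kcnn4 (chr7:24069390-24069589, at -99 bases from the start) it measured 17.8 and 14.2 CPM in WT and 15.6 and 10.1 CPM in KO (log2 fold change -0.30, SE 0.31; edgeR, adjusted p = 0.939). At Kcnk2 (chr1:189079649-189079849, at -471 bases) it measured 11.3 and 9.69 CPM in WT and 9.27 and 14.2 CPM in KO (log2 fold change 0.15, SE 0.37; edgeR, adjusted p = 0.974). The libraries of both groups overlapped at both genes, where RNA differed 6.08-fold and 3.03-fold.

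At Kcnn3 (chr3:89427288-89427547) and Kcnh8 (chr17:52909458-52909806) the nearest region covered the start, with log2 fold changes of 0.17 (SE 0.32) and -0.13 (SE 0.37). At Kcnc1 (chr7:46072378-46072577, 274 bases downstream) it was -0.41 (SE 0.34), and at Kcnc4 (chr3:107369361-107369668, at -2493 bases) -0.27 (SE 0.26). At Kcnn2 it lay 1748 bases downstream (0.73, SE 0.57), and at Kcnu1 in an intron 16775 bases downstream (chr8:26369239-26369468, -0.32, SE 0.58). These are regions of 14 to 81 reads per library, and changes within these errors were not detectable at this depth.

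The strongest member region lies in the intron of Kcnj10 (chr1:172177408-172178329), with peaks in all 4 libraries. It measured 83.8 and 83.4 CPM in WT and 69.3 and 72.0 CPM in KO, lower in both KO libraries, and was not called (log2 fold change -0.24, SE 0.15; edgeR, adjusted p = 0.933). A region distal to Kcne2 was also among the highest (37.6 CPM in WT and 36.7 CPM in KO), although Kcne2 RNA was under 0.4 CPM in every library. These regions were chosen for their level after the values were seen.

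In the authors' annotation, introns held 49.6% of member regions and 35.9% of all regions, promoters 29.7% and 30.5%, and distal stretches 18.8% and 28.0%. A region within 1 kb of the start was present at 55.8% of the 52 tested members and at 56.3% of 11136 tested protein-coding genes. At members with too few counts for a test it was present at 32.5% of 40, beside 10.8% of 8480 such protein-coding genes. Members with such a region had a median of 1.38 TPM in WT and those without 0.186 TPM. Over all protein-coding genes the medians lay further apart, at 19.8 TPM with a region and 0.0502 TPM without. These shares were not tested.

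Summed over all regions assigned to a gene, none of 70 tested members was called (edgeR, smallest adjusted p = 0.335), beside 0.0880% of 13632 tested genes, and 9 (12.9%) had an unadjusted p under 0.05, beside 7.64% of all. Kcnc2 had the smallest p, with 30.3 and 28.2 CPM in WT and 50.9 and 38.9 CPM in KO (log2 fold change 0.62, SE 0.20). Its RNA was at -0.07 (SE 0.32). The Kcnc2 region nearest the start had a peak in 2 KO libraries and 0 WT libraries. It thus entered the authors' table through the group where it is higher. Kcnc1, which rose in RNA, measured 82.7 and 83.6 CPM in WT and 72.7 and 63.0 CPM in KO (log2 fold change -0.29, SE 0.14; edgeR, adjusted p = 0.636). Kcnk2 over its 12 regions was at -0.08 (SE 0.11), Kcnn3 over 15 regions at -0.04 (SE 0.08), and Kcnn4 over 3 regions at 0.15 (SE 0.18).

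**Figure D4:**
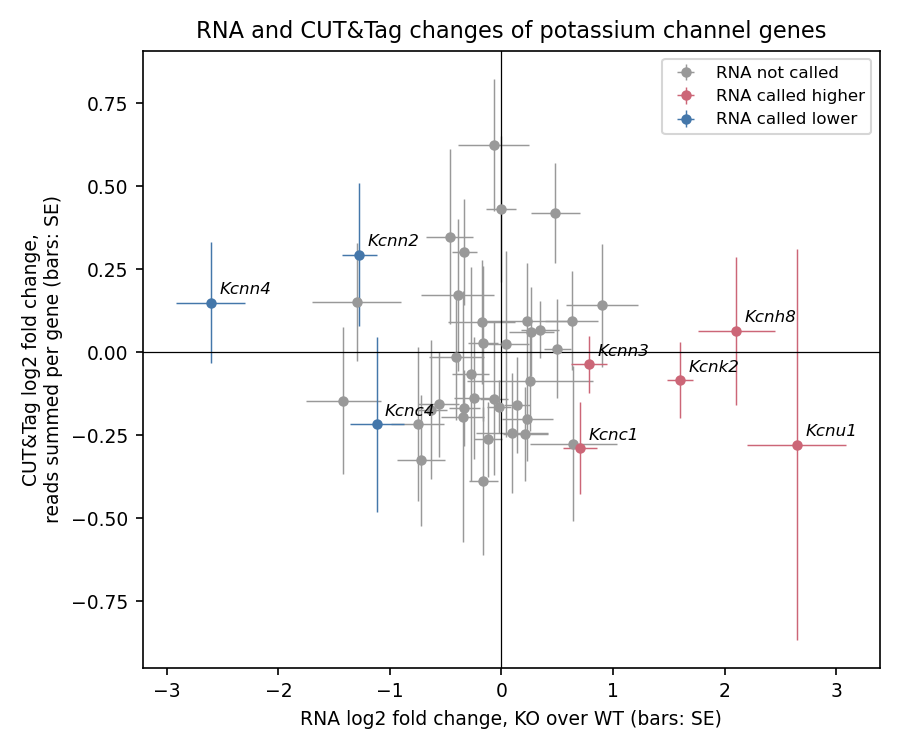
Log2 fold change, KO over WT, of RNA (horizontal) and of CUT&Tag reads summed per gene (vertical) for the 44 potassium channel genes tested in both, with standard errors as bars. Of the 8 genes called in RNA (red higher, blue lower), 2 have the same sign in both assays, Kcnh8 and Kcnc4, and the CUT&Tag values of the 8 lie between -0.29 and 0.29.

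Of the 44 members tested in both assays, 24 had the same sign and 20 the opposite sign. Among the 8 called in RNA, Kcnh8 and Kcnc4 had the same sign in CUT&Tag, and Kcnk2, Kcnn3, Kcnc1, Kcnu1, Kcnn4 and Kcnn2 the opposite sign. Without a spike-in or input, a shift of the signal shared by all regions could not be measured.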

How the data were processed

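NSPCs of WT and Mina53-KO mice were measured by RNA-seq (3 and 3 libraries) and CUT&Tag (2 and 2 libraries). Groups came from sample titles and genotype labels. HISAT2, StringTie and GRCm39 are named in the submitters' processing notes, without versions. Strand setting, counter, peak caller and gene annotation release are named in no source used here. The authors deposited expected counts per gene, which were rounded to whole numbers for testing. CUT&Tag counts per merged region, RPM, a log2 fold change, a p-value and a q-value per region were deposited by the authors, and only the counts were tested here. RNA CPM are relative to all counts and CUT&Tag CPM to reads in regions. TPM were computed from the count and the table's gene length, on which they depend.

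Each assay was fitted on its whole table with edgeR 4.0.16 in R 4.3.3 (TMM, filterByExpr with a minimum count of 10, glmQLFit with robust dispersion, glmQLFTest), KO against WT, Benjamini-Hochberg adjusted, threshold 0.05. Adjusted p-values of the report are from these fits, or from the same fit without the library named beside them. The SE is the log2 fold change divided by the square root of F. The fits were tested on simulated counts. Alternatives were RLE size factors, DESeq2 1.42.0, other count filters, the replicate block, a split of libraries by mitochondrial share as a covariate, library totals, regions within 1 kb of the start, and each library left out.

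Named were Riox2, Kcnn4, Kcnk2, every called member, the 2 members of highest mean TPM per class, the 6 uncalled members of smallest p, called genes of the partner lists, the region nearest the start of each called member, and the 5 member regions of smallest p. Other members and regions were named after their values were seen. Some genes that this rule picks are not reported here. The members and lists were chosen with earlier results of these data known. Of the listed genes, Cnih and Blbp were not found by symbol. Promoters are from RefSeq (GRCm38.p6), leaving out chromosome 18, and their coordinates were not compared with the GRCm39 regions. A planned search of protein sequences for the selectivity filter was not run.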

Additional observations from a re-analysis of the deposited data

How the results depend on the processing

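The count of called members was 8 with RLE size factors, 11 with DESeq2 (Kcnq5 and Kcng4 among those added), 9 with no count filter (adding Kcng4) and 6 with at least 1 CPM in 3 libraries, where Kcnu1 and Kcnh8 were not tested. In the same order, 52, 86, 86 and 43 members were tested, and 3.44%, 5.59%, 2.37% and 3.7% of all tested genes were called. With the mitochondrial-share split as a covariate the count was 16, 8 higher and 8 lower, where 11.1% of all tested genes were called. Leaving out 1 library gave 3 to 6 called members, where 0.931% to 3.25% of all tested genes were called. With the replicate number as a block the count was 3 (Kcnk2, Kcnn4 and Kcnn2), and 229 genes were called in all. The labels do not say that a number marks a shared source, and same-numbered WT and KO libraries correlated in their deviations at 0.46, -0.37 and 0.27. KO 2 correlated best with WT 1 (0.48) and KO 3 with WT 2 (0.56). The positive correlations join libraries on the same side of the mitochondrial-share split, so they cannot decide whether the numbers mark pairs. In CUT&Tag the same correlation was 0.0155 for both pairs. With 2 libraries per group the deviations mirror each other, which forces both pairs to 1 value. Kcnk2, Kcnn4 and Kcnn2 were called in each of the 12 alternatives. Changes near 0 turned sign without being called in either direction. With the covariate, Kcnma1 was at 0.00947 and Kcnj16 at 0.0121. With 1 library left out, values ran from -0.207 to 0.0853 for Kcnmb4, from -0.2975 to 0.0947 for Kcnh4 and from -0.0723 to 0.0232 for Kcnma1. No CUT&Tag region assigned to a member and no summed member gene was called under its alternatives, which include the replicate block. With 2 libraries per group, and 1 in a group when a library was left out (assumed to vary like the other group), CUT&Tag limits what could be detected.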
